A study of Mus musculus with 16 samples.

Results

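The last 491 nucleotides of mouse 28S rRNA, positions 4241 to 4731 of the rRNA sequence used for the alignment, were examined by pseudouridine sequencing. They were chosen by position alone, as the 3′ portion that begins at the sarcin-ricin loop, and are 491 of the 4731 positions of 28S rRNA and of 6878 positions in the 4 rRNAs measured. The libraries came from CD4 T cells of female mice, isolated from lymph nodes and activated for 20 hours on plates coated with anti-CD3 and anti-CD28. Rnmt cKO mice (Rnmt fl/fl with CD4cre) were compared with controls that carried the same floxed Rnmt alleles without the Cre, with 4 animals in each group. RNA of each animal was divided into a library treated with CMC and a mock library, giving 16 libraries. CD4cre is driven by Cd4 regulatory sequence and is active from T cell development in the thymus onwards. The counts cover rRNA only, so neither the loss of Rnmt nor the identity of the cells could be checked in them.

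Pseudouridine is an isomer of uridine that small nucleolar RNAs guide onto chosen positions of rRNA while ribosomes are being made. CMC forms a stable adduct with pseudouridine, and reverse transcriptase stops 1 nucleotide before the adduct, so a modified nucleotide appears as a stop at the next position 3′ of it. The sarcin-ricin loop is a conserved hairpin on which elongation factors act and which the toxins α-sarcin and ricin attack. The segments after it run through domain VI to the 3′ end of 28S rRNA. RNMT is the methyltransferase of the mRNA cap. Each library averages the rRNA of all its cells, so a partial modification in every cell and a full modification in some cells cannot be told apart.

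The loop is shown because it opens the examined stretch and because several stops in and next to it were lower after CMC. The printed letters are those of a copy of 28S sequence in an exon of Lars2, within its 3′ UTR (GENCODE vM21, GRCm38, chr9:123462164-123462186, plus strand), which was aligned to 28S rRNA by its T at 10 of the 10 sites called in the 250 nucleotides before position 4241, against 8 for the next best of 3668 shifts. It stands for nucleotides 4247 to 4269, and the capitals mark the loop motif ACGAGAG at nucleotides 4255 to 4261, searched on the strand of the rRNA.
28S sarcin-ricin loop: tgctcagtACGAGAGgaaccgca
The motif occurred 1 time in the part of the copy after position 4240 and 2 times in the whole transcript. Sequence at the later stops was not read here.

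The value at each position is percent termination, which is the number of read starts there as a percentage of the read starts in the 65 nucleotides that end there. That window is the longest read left after a barcode of 10 nucleotides is taken from 75 cycles, so the percentage is a lower bound. Dividing an animal's CMC termination by its mock termination gives the PSU score. A site was called at a mean CMC termination of at least 3% and a mean PSU score of at least 3 in either genotype. Libraries held 1130058 to 2165668 read starts, of which 180974 to 395443 lay in the last 491 nucleotides of 28S rRNA. Of the 491 positions, 470 had a read start in some library, 465 had one in every library and 21 had none in any. The last position with over 100 starts over all libraries was 4706, which is 25 nucleotides before the end.

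Read starts were unevenly spread along the stretch. It held 25.1% to 34.6% of the 28S read starts of a library but 10.4% of the length of 28S rRNA. With the starts of all 16 libraries pooled, the first 3 blocks of 100 nucleotides held 1.87%, 1.19% and 1.56% of the 28S starts, whereas positions 4541 to 4640 held 10.8% and positions 4641 to 4731 held 12.7%. The median density was 106, 68.4 and 85.9 starts per nucleotide per 1000000 starts of the library in the first 3 blocks and 577 and 825 in the last 2, against 96.4 in the rest of 28S rRNA. The pile-up thus lay in the last 2 of the 5 blocks, and its beginning differed between libraries.

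**Figure D1:**
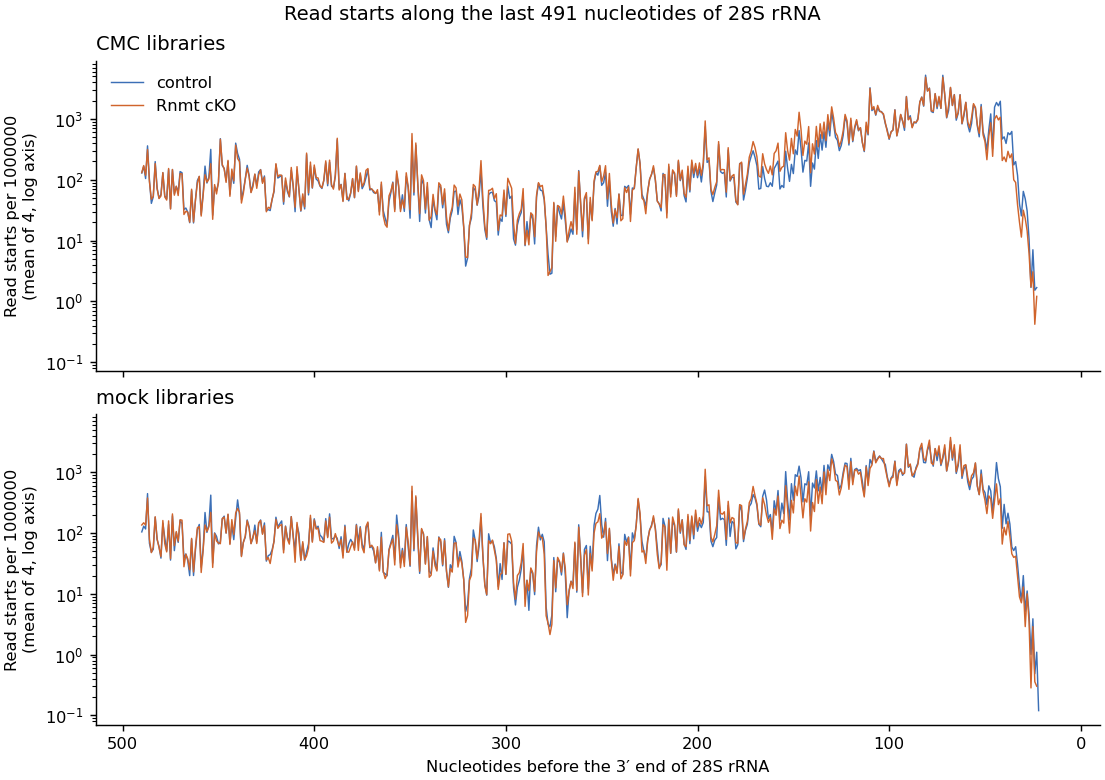
Read starts per 1000000 at each nucleotide of the last 491 of 28S rRNA (log axis, mean of 4 libraries) against the distance to the 3′ end, with CMC libraries above and mock libraries below and 1 line per genotype. Starts climb over the last 2 blocks to a maximum and then fall away, and the last 25 nucleotides are almost empty.

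CMC raised termination sharply at 6 positions, all of which were called as sites. It lowered termination slightly over a wider set of positions, with 16 at 4241 to 4340 and 9 at 4341 to 4440. Termination was higher in CMC at 25 of 302 tested positions (8.28%) and lower at 25 (edgeR quasi-likelihood test with the animal as a block, adjusted p under 0.05). Over all 4 rRNAs 11.5% of tested positions were higher and 10.4% lower, so in this fit neither share was above that background. The median log2 effect of CMC was -0.07 over the 302 positions and -0.04 over all 4030 tested. The balance of directions depended on the scaling. With TMM library sizes 21 positions were higher (6.95%, against 10.6% of all) and 41 lower (13.6%, against 6.82%). When the starts in the 10 nucleotides on each side replaced the window, 41 were higher (13.6%, against 14%) and 78 lower (25.8%, against 17%), so under both alternatives the share of lower positions was above that over all rRNAs. Without control animal 3 the count of lower positions was 15 (4.97%, against 7.13%). The 6 sites were the stops 4282, 4327, 4343, 4621, 4650 and 4659, which place the modified nucleotide at 4281, 4326, 4342, 4620, 4649 and 4658. They were 6 of 491 positions against 1.02% of positions called in the 4 rRNAs together. All 6 met both thresholds in control cells and 4 met both in Rnmt cKO cells.

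**Figure D2:**
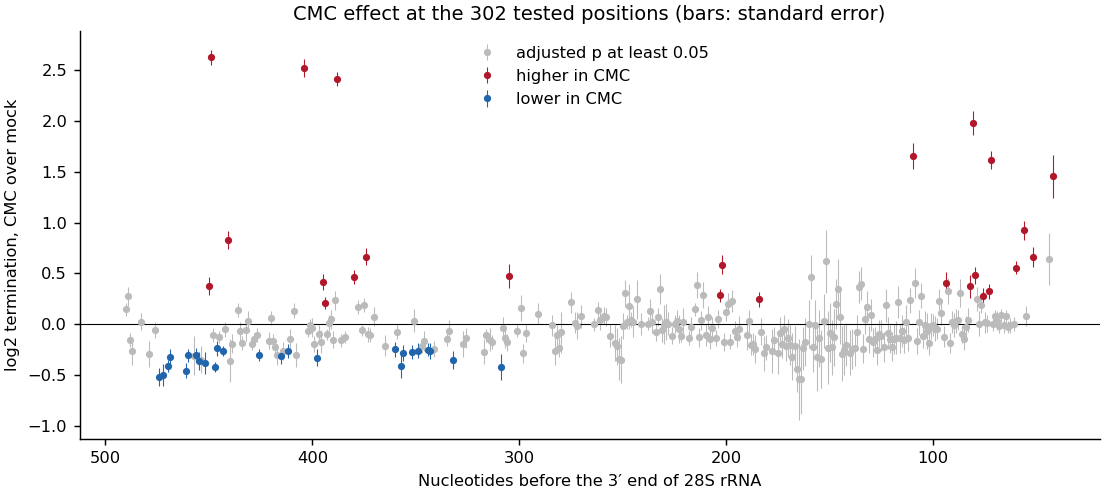
Log2 ratio of termination in CMC to mock libraries with its standard error at the 302 tested positions, against the distance to the 3′ end of 28S rRNA. The 6 sites and stop 4689 stand between 1.45 and 2.62, while the 25 lower positions lie between 474 nucleotides before the end and the middle of the stretch.

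The first 3 sites lay in the first 2 blocks, before the pile-up, and had the largest effects of CMC. At stop 4282, CMC termination in control animals 1 to 4 was 6.64%, 5.66%, 5.23% and 5.58%, and mock termination was 1.26%, 0.901%, 0.845% and 0.870%. In Rnmt cKO animals 1 to 4 it was 6.12%, 5.88%, 5.60% and 5.45% with CMC and 0.788%, 1.06%, 0.932% and 0.869% in the mock. The CMC and mock libraries did not overlap, and the genotypes overlapped within each treatment. The log2 ratio of CMC to mock was 2.62 (SE 0.075, edgeR adjusted p = 2.02e-09), with CMC higher in 8 of 8 animals.

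Stop 4327 had lower termination than its neighbours among the sites but a similar contrast. CMC termination was 3.54%, 3.81%, 3.64% and 4.11% in controls and 4.20%, 4.02%, 4.39% and 3.90% in Rnmt cKO animals. Mock termination was 0.873%, 0.695%, 0.627% and 0.654% in controls and 0.560%, 0.736%, 0.662% and 0.683% in Rnmt cKO animals. Every CMC library lay above every mock library, with a log2 ratio of 2.52 (SE 0.091, edgeR adjusted p = 7.91e-09). At this stop the fewest read starts in a library were 46, the smallest number behind any called site of the stretch.

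Stop 4343 lay 16 nucleotides further on, so that its window included stop 4327. CMC termination was 5.60%, 6.11%, 5.69% and 6.09% in controls and 6.64%, 6.28%, 6.03% and 5.65% in Rnmt cKO animals. Mock termination was 1.08%, 1.10%, 1.25% and 1.16% in controls and 1.10%, 1.28%, 1.01% and 1.04% in Rnmt cKO animals. Again all CMC libraries exceeded all mock libraries, at a log2 ratio of 2.41 (SE 0.070, edgeR adjusted p = 2.02e-09). Relative to the mean of the 10 nucleotides on each side, stop 4343 held 4.85 ± 0.27 times (SD, n = 4) as many starts in control CMC libraries and 0.874 ± 0.054 times as many in control mock libraries.

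The other 3 sites lay in the pile-up, and their termination rested on far more starts but on a steep local gradient. At stop 4621, CMC termination was 10.6%, 12.0%, 13.9% and 13.8% in controls and 9.76%, 10.9%, 8.35% and 7.60% in Rnmt cKO animals. Mock termination was 4.18%, 2.65%, 3.16% and 4.00% in controls and 2.81%, 3.40%, 3.27% and 3.86% in Rnmt cKO animals. This was the third highest CMC termination among the 70 sites of the 4 rRNAs, at a mean of 10.9% over the 8 animals, yet its mean PSU score of 3.26 ranked 62. CMC exceeded mock in 8 of 8 animals, with a log2 ratio of 1.66 (SE 0.13, edgeR adjusted p = 5.13e-06).

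Stop 4650 had the largest CMC effect in the pile-up. CMC termination was 9.04%, 8.85%, 8.69% and 9.20% in controls and 7.81%, 8.55%, 7.50% and 7.15% in Rnmt cKO animals. Mock termination was 1.69%, 1.94%, 2.17% and 2.10% in controls and 1.82%, 1.98%, 3.03% and 2.44% in Rnmt cKO animals. No CMC library overlapped a mock library, and the log2 ratio was 1.98 (SE 0.12, edgeR adjusted p = 4.31e-07).

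Stop 4659 followed 9 nucleotides later, within the same window. CMC termination was 6.82%, 6.62%, 6.55% and 6.71% in controls and 6.12%, 6.41%, 5.97% and 5.46% in Rnmt cKO animals. Mock termination was 1.90%, 1.92%, 2.10% and 1.96% in controls and 1.85%, 1.96%, 2.71% and 2.24% in Rnmt cKO animals. CMC was again higher in every animal, with a log2 ratio of 1.61 (SE 0.086, edgeR adjusted p = 1.89e-07). At least 2498 starts in each library lay behind these percentages.

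**Figure D3:**
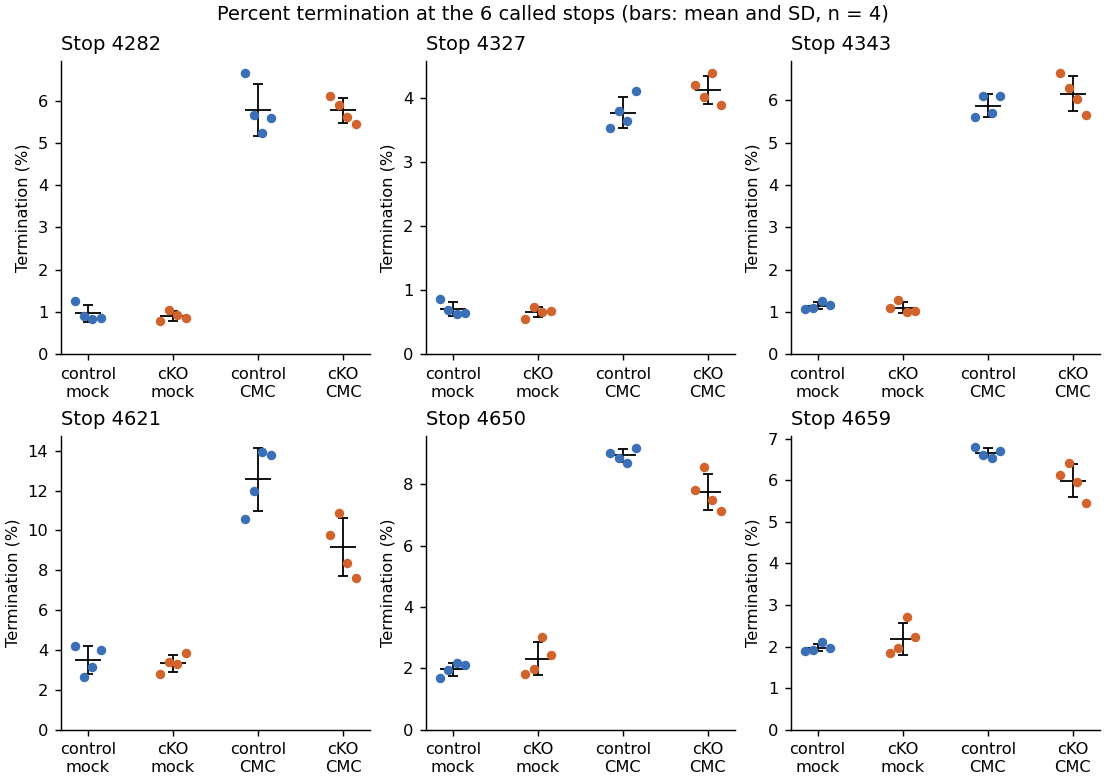
Percent termination at the 6 called stops in each mock and CMC library of control and Rnmt cKO animals (points), with mean and SD (n = 4). CMC libraries lie above all mock libraries at every stop, and at stops 4650 and 4659 the control CMC libraries lie above the Rnmt cKO CMC libraries. These genotype differences did not pass the edgeR test (adjusted p = 0.183 and 0.232).

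Stop 4689, which reports nucleotide 4688, rose with CMC without reaching the termination threshold and was not called as a site. CMC termination was 1.43%, 2.16%, 2.46% and 2.31% in controls and 1.59%, 1.63%, 0.845% and 0.465% in Rnmt cKO animals. Mock termination was 0.826%, 0.507%, 0.857% and 0.510% in controls and 0.461%, 0.458%, 0.366% and 0.419% in Rnmt cKO animals. CMC was higher in 8 of 8 animals (log2 ratio 1.45, SE 0.21, edgeR adjusted p = 0.000806). The spread was wide, with PSU scores of 1.73, 4.26, 2.86 and 4.54 in controls and 3.44, 3.55, 2.31 and 1.11 in Rnmt cKO animals. Set against the nucleotides on each side instead of the window, its log2 ratio was 0.69.

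Of the other positions higher with CMC, the 10 with the largest log2 ratio were examined, and several followed shortly after a site. Stop 4290 stood at 4.02% to 4.74% over the 8 CMC libraries and 2.18% to 3.12% over the 8 mock libraries, a log2 ratio of 0.83 (SE 0.089). Stops 4351 and 4357, shortly after site 4343, had log2 ratios of 0.46 and 0.66, the former losing the threshold at 0.17 when set against the nucleotides on each side. Stops 4651, 4671, 4675 and 4679, after site 4650, had log2 ratios of 0.48, 0.56, 0.92 and 0.66. Set against the nucleotides on each side these ratios were 0.11, 0.43, 0.75 and 0.18. Of these stops, 4671, 4675 and 4679 rose in all 8 animals and 4651 in 7. Termination at stop 4675 rose from 0.738% to 1.16% in the mock to 1.45% to 2.45% with CMC. Stops 4426 and 4529, further from any site, rose by 0.47 and 0.59.

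Positions lowered by CMC lay only in the first 2 blocks, with 16 of 62 tested positions at 4241 to 4340, 9 of 45 at 4341 to 4440 and 0 of 66, 94 and 35 in the following blocks (edgeR adjusted p under 0.05). In those 3 blocks 2 were lower at an unadjusted p under 0.05, and with the nucleotides on each side in place of the window lower calls were more numerous over the stretch, at 78. The largest fall was in the loop motif, at stop 4257. CMC termination there was 1.49%, 1.80%, 1.79% and 1.89% in controls and 2.01%, 1.43%, 1.83% and 1.71% in Rnmt cKO animals. Mock termination was 2.71%, 2.52%, 2.35% and 2.30% in controls and 2.42%, 2.66%, 2.20% and 2.78% in Rnmt cKO animals. All 8 animals were lower with CMC, by 0.52 on the log2 scale (log2 ratio -0.52, SE 0.090, edgeR adjusted p = 0.00222).

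Several tested stops of the printed sequence were lower with CMC. Stops 4248, 4252 and 4255 did not pass the test, at log2 ratios of 0.03, -0.29 and -0.06 (edgeR adjusted p = 0.867, 0.123 and 0.649). In the sequence printed above, stop 4257 reports nucleotide 4256, the C of the motif, and stops 4259 and 4261 report the A at 4258 and the A at 4260. Log2 ratios were -0.50 at stop 4259, -0.41 at stop 4261 and -0.32 at stop 4262, and stop 4270, which reports the last printed letter, was at -0.46. CMC was lower in 8, 8, 7 and 8 of 8 animals at these 4 stops. The windows of these stops reach back over CMC sites before position 4241, whose starts are part of the denominator. With the nucleotides on each side in place of the window, stop 4257 had a log2 ratio of -0.27 and remained past the threshold, whereas stops 4259 and 4270 had -0.20 and -0.07 and did not. Stops 4284 and 4422 completed the 5 largest falls at -0.42 each. Stop 4422 lost the threshold with TMM library sizes, with median-ratio size factors and without each of Rnmt cKO animals 1 and 2 and control animals 3 and 4, with log2 ratios of -0.41, -0.42, -0.43, -0.40, -0.37 and -0.42.

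The strongest stops of the mock libraries needed no CMC. Stop 4535 had a mock termination of 8.57% to 12.5% in controls and 12.9% to 18.8% in Rnmt cKO animals, with a CMC termination of 10.8% to 13.8% over all animals. Stop 4500 had 5.85% to 10.7% and 9.55% to 12.9% in the mock libraries of the 2 genotypes, and stop 4382 had 6.17% to 9.67% and 9.94% to 11.6%. Genotype differences in mock termination at stops 4535, 4500 and 4382 did not pass the test (edgeR adjusted p = 0.648, 0.667 and 0.648). CMC lowered stop 4382 by 0.26 on the log2 scale (log2 ratio -0.26, edgeR adjusted p = 0.0319, lower in 7 of 8 animals), while stops 4535, 4500, 4480 and 4601 did not pass the test. At stop 4480 the mock library of control animal 1 stood apart at 22.4%, the other control mock libraries being at 6.68% to 6.75% and that of Rnmt cKO animal 1 at 10.9%.

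Loss of Rnmt was then compared with control at the 6 sites through the PSU score. Rnmt cKO cells had the higher mean at the 3 sites before the pile-up and the lower mean at the 3 sites within it, but no difference passed the test. At stop 4282, scores were 5.25, 6.28, 6.19 and 6.41 in controls and 7.76, 5.57, 6.01 and 6.28 in Rnmt cKO animals. Stop 4327 had 4.06, 5.48, 5.81 and 6.28 against 7.50, 5.46, 6.63 and 5.71. Stop 4343 had 5.19, 5.58, 4.54 and 5.25 against 6.04, 4.90, 5.96 and 5.46. The genotypes overlapped at all 3 stops, with differences of 0.372 (SE 0.612), 0.919 (SE 0.682) and 0.451 (SE 0.517).

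In the pile-up, Rnmt cKO animals 3 and 4 had the lowest scores of the Rnmt cKO group. Stop 4621 had 2.53, 4.53, 4.41 and 3.44 in controls against 3.48, 3.20, 2.55 and 1.97 in Rnmt cKO animals, a difference of -0.929 (SE 0.630). Stop 4650 had 5.35, 4.58, 4.01 and 4.39 against 4.29, 4.32, 2.47 and 2.93, a difference of -1.08 (SE 0.616). Stop 4659 had 3.59, 3.44, 3.11 and 3.42 against 3.31, 3.26, 2.21 and 2.44, a difference of -0.583 (SE 0.502). The genotypes overlapped at each stop. Mean scores in Rnmt cKO cells were 2.80 at stop 4621 and 2.81 at stop 4659, which put these 2 stops under the site threshold of 3 in that genotype alone. That is a position relative to a threshold and not a tested difference.

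At the 6 sites, the genotypes differed in PSU score at 0 stops at an adjusted p under 0.05 (limma with eBayes over the 70 sites), 0 had an unadjusted p under 0.05, and the smallest adjusted p was 0.599, at stop 4650. Of the 70 sites in the 4 rRNAs 0.0% differed. With the replicate number as a block, 0 of the 6 sites passed as well.

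**Figure D4:**
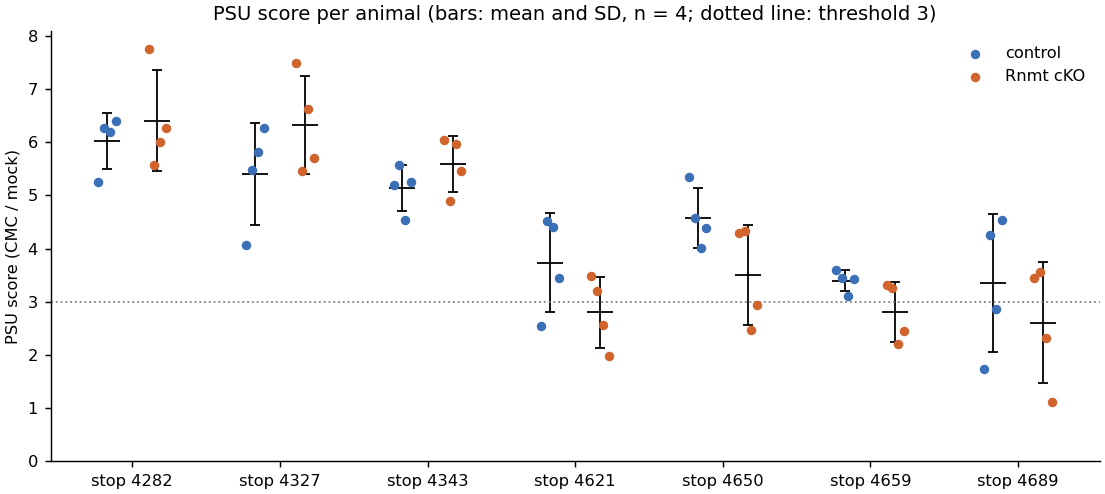
PSU score (CMC over mock termination of the same animal) at the 6 called stops and at stop 4689 for each control and Rnmt cKO animal, with mean and SD (n = 4) and the threshold of 3 as a dotted line. The genotypes overlap at each stop, and Rnmt cKO animals 3 and 4 are the lowest of their group at stops 4621, 4650, 4659 and 4689.

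CMC termination was compared between genotypes at every tested position. The 3 sites of the pile-up had lower means in Rnmt cKO cells, at 9.15% ± 1.46 against 12.6% ± 1.58 (SD, n = 4) at stop 4621, 7.75% ± 0.60 against 8.94% ± 0.22 at stop 4650 and 5.99% ± 0.40 against 6.67% ± 0.11 at stop 4659. The CMC libraries of the 2 genotypes did not overlap at stops 4650 and 4659, whereas they overlapped at stop 4621. How many of the other tested positions also lacked overlap was not counted. The log2 differences were -0.46 (SE 0.12), -0.21 (SE 0.059) and -0.16 (SE 0.054), and the edgeR adjusted p-values were 0.153, 0.183 and 0.232. Against the nucleotides on each side in place of the window, the 3 differences were -0.10, -0.10 and -0.12, and with TMM library sizes they were -0.08, -0.14 and -0.14. The sites before the pile-up had log2 differences of -0.00188, 0.13 and 0.07.

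Across the stretch 0 of 302 positions differed in CMC termination (edgeR adjusted p under 0.05, 0.0% of the 4022 tested in all), although 76 (25.2%) had an unadjusted p under 0.05 against 14.8% of all positions tested. These 76 were unevenly placed, with 48 among the 92 tested positions at 4541 to 4640, of which 36 were lower in Rnmt cKO cells and 12 higher. Neighbouring positions share their windows and are not independent. DESeq2 called 15 positions, 2 higher and 13 lower in Rnmt cKO cells, against 1.86% and 0.945% of all positions tested. The 15 included stops 4621 and 4650 and a run from 4605 to 4630 in which 11 of the 15 lay. TMM and median-ratio scaling each called 1, stop 4433, higher in Rnmt cKO cells (0.331%, against 0.249% of all positions). Leaving out control animal 1 gave 9, all between 4576 and 4587 and higher in Rnmt cKO cells, against 0.348% higher and 0.0249% lower over all positions. At stop 4583, inside that run, control animal 1 had a CMC termination of 4.55% and the other controls 1.47% to 2.40%.

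Stop 4433 had the smallest p of this comparison. CMC termination was 1.26%, 1.52%, 1.02% and 1.37% in controls and 2.19%, 1.98%, 1.82% and 1.90% in Rnmt cKO animals. The genotypes did not overlap, with a log2 difference of 0.61 (SE 0.13, edgeR adjusted p = 0.0819). The mock libraries also did not overlap, at 1.22%, 1.84%, 1.65% and 1.96% against 2.21%, 2.06%, 2.63% and 2.22% (log2 difference 0.44, edgeR adjusted p = 0.648). Neither comparison passed the test in the main fit. In CMC termination the stop passed with DESeq2 (log2 difference 0.61, DESeq2 adjusted p = 0.00314). It also passed with TMM and median-ratio scaling (log2 differences 0.80 and 0.81, edgeR adjusted p = 0.0449 and 0.0437).

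Mock termination differed at 0 of 298 tested positions in the main comparison (edgeR adjusted p under 0.05, 0.0% of 3989 in all), with 26 (8.72%) at an unadjusted p under 0.05 against 6.24% of all positions and 0 called by DESeq2. The smallest p was at stop 4548, where mock termination was 0.906%, 1.10%, 1.26% and 1.11% in controls and 1.86%, 1.48%, 1.72% and 1.31% in Rnmt cKO animals (log2 difference 0.54, edgeR adjusted p = 0.648). That main comparison was unpaired. With the replicate number as a block, 75 of the 298 positions had an unadjusted p under 0.05, as had 715 of the 3989 in all. In the blocked fit 2 of the 298 positions passed, both lower in Rnmt cKO cells, as were 0.426% of all positions tested. They were stops 4274 and 4277, just after the loop, at log2 differences of -0.80 and -1.02, and they are named here after their values were seen.

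The effect of CMC itself was compared between genotypes as an interaction. It differed at 0 of 302 positions (edgeR adjusted p under 0.05, 0.0% of 4030 in all), with 62 (20.5%) at an unadjusted p under 0.05 against 6.25% of all positions. Of the 62, 51 were among the 94 tested positions at 4541 to 4640, and 21 of these had a larger and 30 a smaller effect of CMC in Rnmt cKO cells. DESeq2 called 11 positions (0.273% of all tested), between 4576 and 4592, all with a larger effect in Rnmt cKO cells, and these were all the positions it called in the 4 rRNAs. Stop 4583 had the smallest p. CMC termination there was 4.55%, 2.40%, 1.47% and 1.72% in controls and 4.73%, 3.30%, 3.63% and 3.99% in Rnmt cKO animals, and mock termination was 6.64%, 5.89%, 3.85% and 2.34% against 3.48%, 2.51%, 2.47% and 1.72%. CMC was below mock in all control animals and above it in all Rnmt cKO animals, with an interaction of 1.57 on the log2 scale (edgeR adjusted p = 0.490). The interaction was 0.32 against the nucleotides on each side and 2.11 with TMM library sizes.

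Libraries also differed in the onset of the pile-up. The share of the stretch's read starts that lay between 4541 and 4590 was 7.55%, 4.75%, 4.09% and 4.32% in control CMC libraries and 15.3%, 11.3%, 7.22% and 5.33% in control mock libraries. In Rnmt cKO animals it was 7.21%, 5.48%, 9.93% and 11.1% with CMC and 14.8%, 5.52%, 7.79% and 5.03% in the mock. Control animals had more of these early starts in the mock in 4 of 4 pairs, as did Rnmt cKO animal 1, while Rnmt cKO animal 2 had nearly equal shares and Rnmt cKO animals 3 and 4 had more with CMC. At stop 4583, in this region, percent termination was higher with CMC than in the mock in all 4 Rnmt cKO animals. Starts there relative to the mean of the 10 nucleotides on each side were lower with CMC in Rnmt cKO animal 1 (1.22 against 1.26). They were higher with CMC in Rnmt cKO animals 2, 3 and 4 (1.17, 1.16 and 1.24 against 0.979, 1.10 and 1.01). The sites at 4621, 4650 and 4659 lie directly after the onset of the pile-up. The part of that onset in the genotype differences, at these sites and at stop 4583, was not tested. Rnmt cKO animals 3 and 4 were also the animals with the lowest PSU scores of their group at stops 4621, 4650 and 4659. Rnmt cKO animal 3 had the highest mock termination of all animals at stops 4650 (3.03%) and 4659, though not at stop 4621. Its mock library also had the fewest read starts, 1130058.

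**Figure D5:**
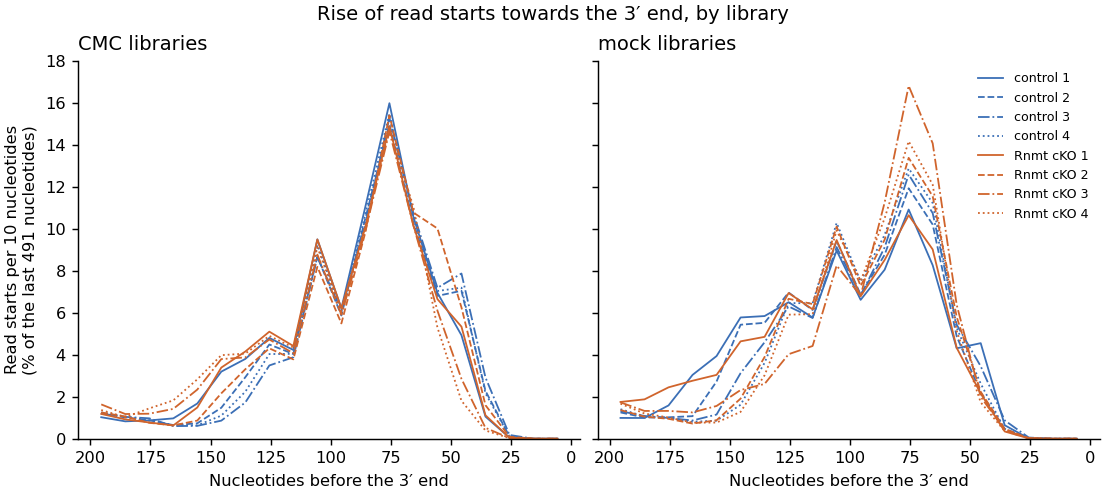
Read starts per 10 nucleotides as a percentage of the starts in the last 491 nucleotides of 28S rRNA, against the distance to the 3′ end, 1 line per library, with CMC libraries on the left and mock libraries on the right. Libraries diverge where the rise begins, at the peak and near the end. The mock libraries of control animals 1 and 2 and Rnmt cKO animal 1 climb early, as do the CMC libraries of Rnmt cKO animals 3 and 4. At positions 4651 to 4660 the mock library of Rnmt cKO animal 3 holds 16.8% and the other mock libraries 10.7% to 14.2%. At positions 4681 to 4690 the CMC libraries hold 1.81% to 7.87%.

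Shares of read starts were compared between groups as 1 value per library. The stretch held 28.6% ± 2.58 of 28S starts (SD, n = 4) with CMC in controls and 28.3% ± 1.64 with CMC in Rnmt cKO animals, and 28.8% ± 4.17 and 27.4% ± 1.96 in their mock libraries, with exact permutation p = 0.886 and 0.629 (2-sided). With CMC, positions 4541 to 4640 held less of the stretch and positions 4641 to 4731 more, by -8.25 and 8.45 percentage points, each in 6 of 8 animals (exact paired p = 0.0313, adjusted p = 0.281 over 18 comparisons). With the blocks moved by 50 nucleotides these differences were 1.46 and 1.10 points, the first with the opposite sign. In controls alone the differences were -12.5 ± 2.38 and 12.6 ± 1.28 points (SD, n = 4), and in Rnmt cKO animals -4.02 ± 8.01 and 4.26 ± 9.50 points, and the test of the difference between genotypes gave an exact permutation p = 0.114 (adjusted p = 0.343) for each. Of the 18 comparisons none passed the adjustment. The smallest p that 4 animals against 4 allow is 0.0286, and 8 pairs allow 0.0078. A single comparison at either value could not pass the adjustment over 18, so the lack of calls says little.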

How the data were processed

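Pseudouridine sequencing libraries (CMC and mock, 8 animals) were analysed from deposited read-start counts. Per the study's methods, the authors extracted a barcode of 10 nucleotides with UMI-tools, trimmed adapters with cutadapt, aligned to rRNA sequences with bowtie2, removed PCR duplicates and dropped secondary and low-quality alignments with SAMtools. The submitters' processing notes also name STAR 2.5.2b and deepTools, with no role given. The deposited counts are whole numbers per nucleotide and not normalized. Reads with the same start and barcode count once. Total coverage cannot be read from starts alone, so the starts in a window of 65 nucleotides stood in for it.

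Tests covered positions whose termination averaged 1% or more in the libraries of a fit, and were run with edgeR 4.0.16 (quasi-likelihood, 2-sided, log window coverage as offset, Benjamini-Hochberg over all positions of the 4 rRNAs, threshold 0.05). The CMC effect and its interaction with genotype had the animal as a block. PSU scores were tested with limma 3.58.1. Shares were tested by exact permutation over animals in Python 3.11.15. DESeq2 1.42.0, other windows, other scaling, other filters and the removal of each animal were alternatives. The scripts were tested on simulated data. The positions and tests were chosen with earlier results of these data known. Named positions were the called sites, the 10 largest rises with CMC among other positions, the 5 largest falls, the 5 highest mock stops, the smallest p of each genotype test, and the nucleotides 4620, 4649 and 4688.

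Groups and replicate numbers came from the sample labels, and the labels pair CMC and mock libraries by genotype and number, each number being taken as 1 animal. P-values measure the spread between these samples. Same-numbered control and Rnmt cKO animals deviated together in mock termination (r of 0.658, 0.424, 0.169 and 0.381) and in PSU score (0.578, 0.127, 0.368 and 0.167) but not in CMC termination (-0.0905, -0.0115, -0.131 and -0.33), so the number was taken as a pairing for mock termination and PSU score only, from the data and not from the labels. The main genotype tests of both measures were unpaired. The pairing entered only in the alternative fits with the replicate number as a block. Libraries of 1 group differed by more than sampling noise in all 24 pairs (chi-square per degree of freedom 2.5 to 45.3). Each library had 1130058 to 2165668 read starts, and the windows behind the 6 sites held 6949 to 194509.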

Additional observations from a re-analysis of the deposited data

Results flagged for a closer look

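Of 60 groups of 4 libraries examined for a value far from the other 3, 2 held one, where chance gives 3. Both were libraries of control animal 1. Its mock termination at stop 4282 was 1.26%, with the other controls at 0.845% to 0.901%. Its CMC library had 3.05% of the read starts of the last 491 nucleotides at positions 4341 to 4440. The 60 groups did not cover every named stop. The mock libraries at stop 4480 were not among those flagged, though control animal 1 stood at 22.4% there and the other controls at 6.68% to 6.75%.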

How the results depend on the processing

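The 6 sites kept a higher termination in CMC past the threshold under every window, scaling, filter and left-out animal tried, and 5 to 8 sites were called. No setting gave a PSU difference past the threshold. Counts moved more. Positions higher with CMC numbered 38 and 48 with windows of 40 and 30 nucleotides, 41 with the flanking nucleotides, 14 at a mean termination of at least 2% and 48 without a filter, against 25. As shares of tested positions these were 10.2%, 11.6%, 13.6%, 9.27% and 10.2%, against 11.7%, 11.9%, 14%, 13.4% and 10.3% over all rRNAs. Positions lower numbered 42, 43 and 58 with windows of 50, 40 and 30 nucleotides, 41 with TMM, 47 with median-ratio factors, 78 with the flanking nucleotides and 7 at 2%, against 25, and 15 (without control animal 3) to 35 (without control animal 1) when 1 animal was left out. The shares under these 7 settings were 12.1%, 11.5%, 14%, 13.6%, 15.6%, 25.8% and 4.64%, against 10.8%, 10.8%, 11.5%, 6.82%, 7.92%, 17% and 13.4% over all rRNAs. Of these 7, all but the 2% filter put the stretch above all rRNAs in lower positions, unlike the reported fit. With DESeq2 (7.62% against 8.98%), limma (8.61% against 10.1%) and any 1 animal left out, the share was below that over all rRNAs, as in the reported fit. Without a filter the share was 7.87% against 7.71%. Positions that differed in CMC termination between genotypes numbered 1 with TMM, 1 with median-ratio factors, 15 with DESeq2 and 0 to 9 when 1 animal was left out (9 without control animal 1), against 0. Positions that differed in the interaction numbered 11 with DESeq2, against 0. The causes were not tested, except that a stricter filter tests fewer positions.

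With the replicate number as a block, 2 positions differed in mock termination, against 0, and the block changed no other call. In CMC termination, where the numbers did not pair the animals, it gave 0 positions.

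Values near 0 changed sign without passing a test. The log2 genotype difference in CMC termination at stop 4282 (-0.00188) was 0.0207, 0.0730 and 0.0914 with windows of 50, 40 and 30 nucleotides, 0.11 with the flanking nucleotides, 0.0014 with limma, 0.0016 with the replicate block and -0.0468 to 0.0709 when 1 animal was left out. It was -0.0285 at stop 4327 with the flanking nucleotides and -0.0096 at stop 4343 with a window of 30 nucleotides. The PSU difference at stop 4282 was -0.0793 to 0.649 when 1 animal was left out.

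Shares, in percentage points, depended on the borders chosen. For the share of 28S starts, Rnmt cKO minus control in CMC libraries was 1.09 without the last block and 0.526 of all 4 rRNAs, and CMC minus mock was -2.09 and -0.273. With blocks moved by 50 nucleotides, Rnmt cKO minus control was 0.0295 (the first block) and -2.57 (the fourth) in CMC and -0.193, -1.05, 1.47 and -0.230 (the second to the fifth) in mock libraries, and CMC minus mock was -0.191 (the second) and 1.46 (the fourth). Without the 5 positions with most starts, the first block in mock libraries was at 0.0360. When 1 animal was left out, Rnmt cKO minus control in the share of 28S starts ranged from -0.966 to 0.935 in CMC and from -2.51 to 0.515 in mock libraries, and CMC minus mock from -0.0214 to 0.715. In the first block the ranges were -0.403 to 0.212 for genotype in mock libraries and -0.101 to 0.116 for CMC minus mock. For genotype they were -0.0465 to 0.488 in the second block with CMC, -0.180 to 0.338 there in the mock, and -0.00435 to 0.469 in the third block with CMC. The fewest starts behind a site in a library were 46.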
